A study of Mus musculus with 14 samples.

Results

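Hlf, Mecom, Mllt3, Erg, Runx1, Mycn and Myb (in human HLF, MECOM, MLLT3, ERG, RUNX1, MYCN and MYB) are 7 regulators of blood stem and progenitor cells. They were followed here by name among the 22842 genes that both deposited count tables hold. The study combined inducible lineage tracing of adult mouse hematopoietic stem cells (HSC) with single-cell RNA sequencing, and asked how stem cells differentiate in the unperturbed animal. Lineage-negative, Tom-positive cells (Lin- Tom+, cells without mature lineage markers that carry the tracing reporter) were sorted singly into 14 plates and sequenced at the 3′ end of each transcript with a variant of Smart-seq2. All groups shared this sort and differed by day and mouse: day 3 was mouse m4539 (2 plates), day 10 was mouse m4533 (3 plates), and at day 17 there were 4 plates of m4528, 2 each of m605 and of m606, and 1 shared by m605 and m606. The titles give neither the event from which days were counted nor the age or strain of the mice, and they do not name the promoter that drives the tracing. Days 3 and 10 were 1 mouse each, so the day is not separable from the animal there.

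A kept cell had at least 500 genes and 10000 counts, which left 1010 of 9357 barcodes: 190 cells at day 3, 107 at day 10, and 288, 143 and 189 in m4528, m605 and m606, beside 93 on the plate of both mice. The median kept cell held 118001 to 286917 counts, depending on the mouse. The same 96 plate barcodes were reused on the plates, so a barcode names a cell only together with its plate. Cells were assigned to gates by markers, without use of any of the 7 factors. A cell entered the gate whose marker list stood highest over the other cells and of which at least 3 markers were found at more than 10 counts. The scoring rule was chosen after the data had been seen. Over the 1010 cells the multipotent progenitor gate held 59, the megakaryocyte gate 150, the erythroid gate 133, the neutrophil gate 65, the monocyte or dendritic gate 76, the basophil or mast cell gate 44, the lymphoid gate 11 and the HSC gate 326, and 146 cells entered none. HSC-gated cells were 77.9% of the day 3 cells, 54.2% of the day 10 cells and 16.8% of the day 17 cells. A gate is a range of marker counts rather than a proven cell type: the neutrophil list, led by granule genes, summed to 10519 and 14495 CPM (counts scaled to a common library total) in the multipotent progenitor gate and to 12469 and 15067 CPM in the basophil or mast cell gate, against 17051 and 18608 CPM in the neutrophil gate itself, and to between 9866 and 12088 CPM in the monocyte or dendritic gate. The 11 lymphoid-gated cells also carried 5.73 monocyte or dendritic markers on average and were too few to sum.

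Blood stem cells divide seldom and can give rise to all blood lineages, and a small set of transcription factors holds this state while the lineages shut parts of the set down. Hlf belongs to the PAR bZIP family and marks stem cells in mouse and human marrow. Mecom (also called Evi1) is a zinc finger factor that stem cells need to persist, Mllt3 (AF9) is a chromatin reader that links acylated histones to transcription elongation complexes, and Erg is an ETS factor. Runx1 is the DNA-binding subunit of core-binding factor, Mycn is a MYC family factor that acts with Myc in stem cells, and Myb drives the proliferation of progenitors.

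The windows before the annotated starts of Hlf, Mecom, Mllt3 and Mycn are shown because these 4 factors were lower together in the monocyte or dendritic gate and in the erythroid gate, and a stretch just inside Runx1 because it holds matches to the motif of Runx1's own family. All 7 genes are annotated as protein-coding on the minus strand of GRCm38.p6, at chr11:90336535-90390917 (Hlf), chr3:29951296-30509759 (Mecom), chr4:87769925-88033407 (Mllt3), chr16:95359169-95586600 (Erg), chr16:92601466-92826074 (Runx1), chr12:12936093-12941836 (Mycn) and chr10:21124930-21160984 (Myb). Sequences are from RefSeq (GRCm38.p6) and read 5′ to 3′ on the gene's strand. The first 4 cover the 250 bases before the outermost annotated start, at chr11:90390918-90391167, chr3:30509760-30510009, chr4:88033408-88033657 and chr12:12941837-12942086. The Runx1 stretch covers 30 bases, from base 21 to base 50 after its outermost start, at chr16:92826025-92826054. Capitals mark matches on either strand to TGTGGT, known from the RUNX family, to AGATAA, known from erythroid zinc finger factors, to AGGAAG, known from ETS factors, to CAGCTG, an E-box, or to TAACNG, known from Myb, none of which overlapped here.
Hlf: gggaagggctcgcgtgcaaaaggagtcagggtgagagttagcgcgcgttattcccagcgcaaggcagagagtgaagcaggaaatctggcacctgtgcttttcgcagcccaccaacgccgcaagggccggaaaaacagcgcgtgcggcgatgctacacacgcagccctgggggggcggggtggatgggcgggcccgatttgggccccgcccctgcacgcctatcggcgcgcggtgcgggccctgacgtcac
Mecom: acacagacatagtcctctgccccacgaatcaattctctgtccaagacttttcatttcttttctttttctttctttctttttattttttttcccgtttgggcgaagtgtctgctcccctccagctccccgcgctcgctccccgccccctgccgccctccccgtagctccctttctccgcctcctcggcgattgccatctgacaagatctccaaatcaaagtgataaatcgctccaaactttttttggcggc
Mllt3: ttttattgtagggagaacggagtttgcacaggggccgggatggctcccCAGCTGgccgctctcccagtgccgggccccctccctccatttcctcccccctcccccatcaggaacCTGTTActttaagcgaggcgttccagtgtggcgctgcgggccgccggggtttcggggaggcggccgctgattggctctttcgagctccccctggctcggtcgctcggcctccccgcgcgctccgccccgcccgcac
Mycn: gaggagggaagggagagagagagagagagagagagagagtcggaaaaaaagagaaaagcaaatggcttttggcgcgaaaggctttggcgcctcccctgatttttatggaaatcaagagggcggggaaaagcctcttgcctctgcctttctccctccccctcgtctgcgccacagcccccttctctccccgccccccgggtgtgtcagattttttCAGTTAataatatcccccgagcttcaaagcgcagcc
Runx1: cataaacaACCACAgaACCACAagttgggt
Hlf and Mecom held none of the 5 motifs, Mllt3 held CAGCTG and the reverse complement of TAACNG, and Mycn held the reverse complement of TAACNG. The Runx1 stretch, chosen for these matches, held the reverse complement of TGTGGT at 2 places. The rest of its window of 300 bases, not printed, held 1 match to AGGAAG and 1 to TAACNG. Among 32841 windows of 300 bases around annotated mouse starts, 16.8% held TGTGGT, 11.2% AGATAA, 35.4% AGGAAG, 16.3% CAGCTG and 23.3% TAACNG. The printed stretches are shorter, so these shares are no measure of how unusual their matches are. These matches describe letters in the windows and say nothing about binding.

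Levels over all kept cells came first. Mllt3 was at 981 CPM at day 3 and 479 CPM at day 10, and at 193, 110 and 136 CPM in m4528, m605 and m606 at day 17. Hlf was at 274 and 252 CPM at days 3 and 10 and at 89.8, 17.9 and 32.9 CPM at day 17. Mecom was at 216 and 163 CPM and then at 38.7, 7.07 and 15.1 CPM. For these 3 factors every day 17 mouse lay below the day 3 and the day 10 mouse. Mycn was at 153 CPM at day 3 and 234 CPM at day 10, and at 47.5, 7.27 and 24.9 CPM in the day 17 mice. Erg was at 50.7 and 33.4 CPM and then at 17.4, 16.1 and 23.3 CPM. The day 17 mice lay below both earlier mice for these factors as well. Runx1 was at 195 CPM at day 3, 173 CPM at day 10 and 163, 105 and 134 CPM at day 17, with 163 CPM in m4528 close to the day 10 mouse. Myb was at 228, 407 and 337, 208 and 272 CPM in the same order, so its day 17 mice overlapped the earlier ones. In sums over all cells, fewer cells of a type and less RNA per cell cannot be told apart here. The plate levels of Mllt3 did not overlap between days (986 and 976 CPM at day 3, 327 to 575 CPM at day 10, 96.9 to 216 CPM over the 9 plates of day 17).

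The slope over days, fitted with edgeR's quasi-likelihood test on 1 sum per mouse with the count table as a term, called none of the 7 factors. It called 0% of the 16740 genes tested, and 2 residual degrees of freedom were left. The first count table held m4539, m4533 and m4528, and the second held m605 and m606, both of day 17. With the table as a term the slope therefore rests on the first table, with 1 mouse per day. That of Hlf was -1.487 with all mice and -1.489 in the first table alone. Mllt3 had a log2 change of -2.22 per 14 days (SE 0.31, unadjusted p = 0.00087, edgeR adjusted p = 0.271), Mecom of -2.35 (SE 0.79, adjusted p = 0.510) and Hlf of -1.49 (SE 0.63, adjusted p = 0.611). An unadjusted p under 0.05 was met by 1473 genes. DESeq2 on the same sums called Mllt3 and Mecom among 117 genes lower and 338 higher.

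Within the HSC gate the 7 factors were set side by side over days. Mllt3 was at 1111 CPM at day 3 (148 cells), 807 CPM at day 10 (58 cells), and 891, 721 and 672 CPM in m4528 (71 cells), m605 (13 cells) and m606 (23 cells). Hlf was at 304, 457, 414, 96.0 and 318 CPM in the same order, and Mecom at 222, 285, 152, 21.7 and 97.1 CPM. Mycn was at 174, 344, 102, 45.7 and 105 CPM. The day 17 mice overlapped the earlier mice for Hlf, and lay below both for Mecom and Mycn. The lowest values were those of m605, which had the fewest HSC-gated cells: 39.3% of its 84 Hlf counts and 94.7% of its 19 Mecom counts came from 1 cell. Erg was at 57.5, 67.2, 46.0, 12.6 and 120 CPM, Runx1 at 194, 166, 158, 280 and 164 CPM, and Myb at 242, 543, 382, 166 and 360 CPM. The slope over days in this gate called none of the 7 factors and 0% of 12505 genes, with log2 changes per 14 days between -0.73 (Mycn, SE 1.31) and 0.70 (Myb, SE 0.90) and an edgeR adjusted p of 1 for each factor. An unadjusted p under 0.05 was met by 180 genes, and DESeq2 called 1 gene lower and 4 higher, none of them among the 7. The slope in this gate likewise rests on m4539, m4533 and m4528. For Hlf it was 0.489 with all mice and 0.493 in the first table alone.

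The comparison between gates used 21 sums of a mouse and a gate with at least 10 cells, in 1 edgeR fit with the mouse as a block, so that each gate was set against HSC-gated cells of the same animals. All 7 factors passed the filter on low counts, among 16654 genes tested. The 6 comparisons against the HSC gate share the same HSC sums, so their results are not independent of each other. The number of calls also depended on how gate markers were counted: with any count of a marker taken as found, 2 of the 7 factors were called in the monocyte or dendritic gate and 0 in each of the other gates.

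**Figure D1:**
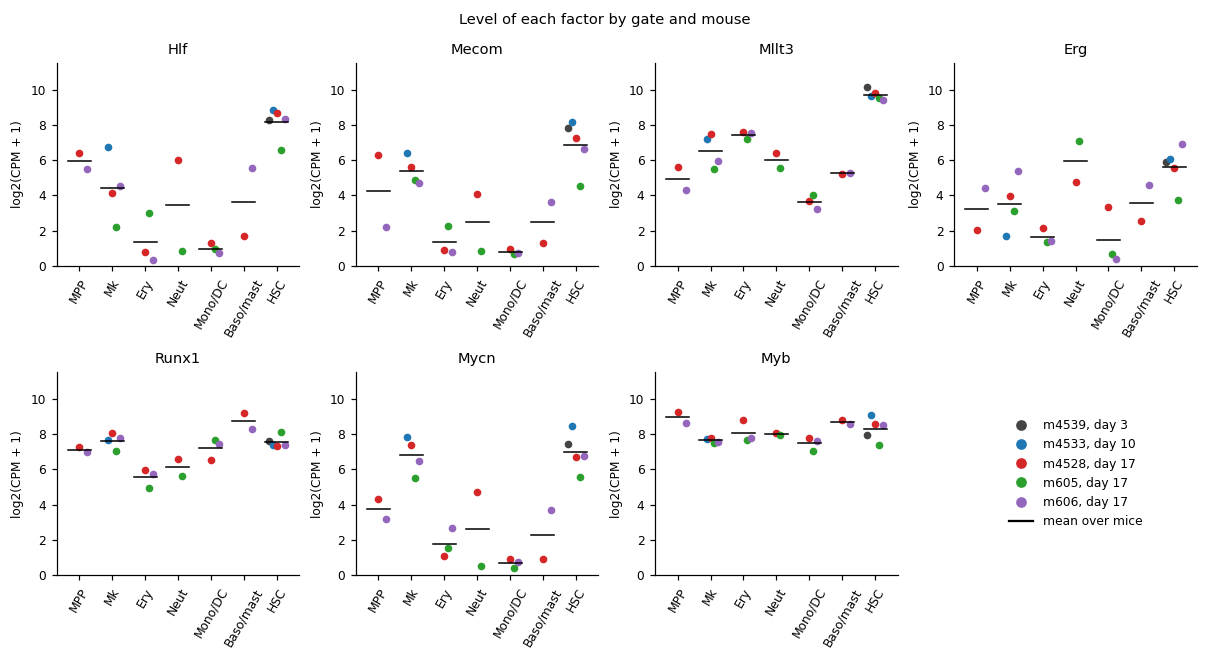
Level of each factor (log2 of CPM + 1) in the multipotent progenitor (MPP), megakaryocyte (Mk), erythroid (Ery), neutrophil (Neut), monocyte or dendritic (Mono/DC), basophil or mast cell (Baso/mast) and HSC gates, with 1 point per mouse and the mean over mice as a line. Mllt3 is highest in the HSC gate in each of the 4 mice that have another gate, Mycn overlaps between the megakaryocyte and HSC gates, and Runx1 is highest in the basophil or mast cell gate.

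Mllt3 was the 1 factor called lower in all 6 gates set against the HSC gate. It was at 47.0 and 18.8 CPM in multipotent progenitor-gated cells of m4528 and m606, against 891 and 672 CPM in HSC-gated cells of the same mice, and fell by 4.53 on the log2 scale (SE 0.53, edgeR adjusted p = 0.001). It was the only 1 of the 7 called there, where 0.12% of all genes were called lower. In the megakaryocyte gate Mllt3 was at 145, 181, 44.7 and 61.3 CPM in m4533, m4528, m605 and m606, against 807, 891, 721 and 672 CPM in the HSC gate, and fell by 2.93 (SE 0.36, adjusted p = 0.00203). In the neutrophil gate it was at 84.9 and 46.8 CPM in m4528 and m605, against 891 and 721 CPM, and fell by 3.40 (SE 0.49, adjusted p = 0.00246). In the basophil or mast cell gate it was at 36.2 and 38.0 CPM in m4528 and m606, against 891 and 672 CPM, and fell by 4.16 (SE 0.52, adjusted p = 0.00119). No value of these gates reached the HSC values of the same mice. Mllt3 was the only 1 of the 7 called in each of these 3 gates as well, where 0.775% (megakaryocyte), 0.546% (neutrophil) and 0.288% (basophil or mast cell) of all genes were called lower. These 4 calls were each lost without m4528 and without m606. In the megakaryocyte gate the edgeR adjusted p of Mllt3 was 0.062 without m4528 and 0.13 without m606. In the neutrophil gate it was 0.06 without m606, which had 3 neutrophil-gated cells and no neutrophil sum. Leaving m606 out there removed only its other sums from the shared fit. In the remaining cases, leaving out the mouse left 1 mouse in the gate.

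The monocyte or dendritic gate had the lowest mean level of 5 of the factors, Hlf, Mecom, Mllt3, Mycn and Myb, of which the first 4 were called. Mllt3 was at 12, 15 and 8.45 CPM in m4528, m605 and m606, against 891, 721 and 672 CPM in the HSC gate, and fell by 5.6 on the log2 scale (SE 0.47, edgeR adjusted p = 1.13e-05). Hlf was at 1.45, 0.937 and 0.65 CPM, against 414, 96.0 and 318 CPM, and fell by 7.40 (SE 1.73, adjusted p = 0.0186). Mecom was at 0.97, 0.625 and 0.65 CPM, against 152, 21.7 and 97.1 CPM, and fell by 6.61 (SE 1.44, adjusted p = 0.0126). Here 4 of the 7 factors were called lower, against 2.93% of all genes. Mycn was at 0.849, 0.312 and 0.65 CPM, against 102, 45.7 and 105 CPM, and fell by 6.96 (SE 1.20, adjusted p = 0.00296). Hlf, Mecom and Mycn were near the counting floor in this gate. Hlf had 25 counts in 67 cells pooled over mice, and 0 of these cells had more than 10 counts of it. The 67 cells include 3 of m4533, which were too few to sum. Fitted changes of such low values depend on the prior count. Without m4528 the calls of Hlf (adjusted p = 0.0987) and Mecom (0.0607) were lost, and without m606 those of Hlf (0.144), Mecom (0.1) and Mycn (0.066) were. Mllt3 kept its call in both cases, and in the second count table alone Mllt3 (adjusted p = 0.0128) and Mycn (0.0472) were called.

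Erg, Runx1 and Myb were not called in monocyte or dendritic-gated cells. Erg was at 9.21, 0.625 and 0.325 CPM, against 46.0, 12.6 and 120 CPM in the HSC gate, with a log2 change of -3.74 (SE 1.42, edgeR adjusted p = 0.133). Runx1 was at 91.3, 203 and 169 CPM, against 158, 280 and 164 CPM, with a log2 change of 0.00 (SE 0.40), and of -0.24 with RLE size factors. Myb was at 221, 129 and 190 CPM, against 382, 166 and 360 CPM, with a log2 change of -0.55 (SE 0.29, adjusted p = 0.291).

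The erythroid gate had the most factors called: 5 of the 7 were lower, against 4.17% of all genes. Hlf was at 0.755, 6.89 and 0.287 CPM in m4528, m605 and m606, against 414, 96.0 and 318 CPM in HSC-gated cells, and fell by 5.76 on the log2 scale (SE 1.65, edgeR adjusted p = 0.0435). In m605, 92.4% of the 79 erythroid-gated Hlf counts came from 1 cell. Mecom was at 0.881, 3.84 and 0.766 CPM, against 152, 21.7 and 97.1 CPM, and fell by 5.25 (SE 1.35, adjusted p = 0.0262). Mycn was at 1.13, 1.92 and 5.36 CPM, against 102, 45.7 and 105 CPM, and fell by 4.79 (SE 1.03, adjusted p = 0.0101). These 3 factors were each found at more than 10 counts in 4, 5 and 4 of 112 erythroid-gated cells. The 112 cells include 2 of m4539 and 5 of m4533, which were too few to sum. The mean share over m4528, m605 and m606 was lower, at 0.725% for Hlf, 0.725% for Mecom and 1.56% for Mycn. Runx1 was at 62.1, 29.7 and 52.5 CPM, against 158, 280 and 164 CPM, and fell by 1.93 (SE 0.42, adjusted p = 0.0117). Every erythroid value of these 4 factors lay below every HSC value of the same mice.

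Mllt3 stood apart from Hlf, Mecom and Mycn in erythroid-gated cells. It was at 190, 146 and 182 CPM, against 891, 721 and 672 CPM in the HSC gate, and fell by 1.92 (SE 0.39, edgeR adjusted p = 0.0068). It was found in 63.2%, 45.7% and 70% of the erythroid-gated cells of m4528, m605 and m606, against 60.6%, 61.5% and 60.9% of their HSC-gated cells. These shares overlapped between the gates, but the median kept cell held 219426 counts in the erythroid gate, against 118070 in the HSC gate. With each cell thinned to 10000 counts and 1 count taken as found, the shares were 57.9%, 47.8% and 57.5% in the erythroid gate, against 63.4%, 69.2% and 69.6% in the HSC gate, and no longer overlapped. Within the erythroid gate, the 51 cells with more than 13 erythroid markers had Mllt3 in 82.4% of cells and at 195 CPM, and the 61 cells with 13 or fewer had it in 37.7% and at 158 CPM. Myb ran the other way, at 158 CPM in the cells with more markers and 516 CPM in those with fewer. The mice with at least 10 cells on both sides, m605 and m606, had Mllt3 at 167 and 196 CPM with more markers and 103 and 115 CPM with fewer, and Myb at 152 and 175 CPM with more and 298 and 406 CPM with fewer. Over the gate Myb was at 450, 200 and 215 CPM, against 382, 166 and 360 CPM in the HSC gate, with a log2 change of -0.09 (SE 0.29, adjusted p = 0.893). Erg was at 3.52, 1.57 and 1.63 CPM, against 46.0, 12.6 and 120 CPM, with a log2 change of -4.51 (SE 1.44, adjusted p = 0.0712).

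Leaving out m4528 or m606 changed the erythroid calls. Without m606 none of the 5 was called (edgeR adjusted p of 0.102 for Mllt3, 0.106 for Mycn, 0.162 for Runx1, 0.186 for Mecom and 0.244 for Hlf, with 5 residual degrees of freedom). Without m4528 Mycn alone was called (0.0183), beside 0.0827 for Runx1, 0.0896 for Mecom, 0.09 for Mllt3 and 0.148 for Hlf. The sign of all 5 changes was the same in each count table alone: Hlf changed by -8.56 and -5.61, Mecom by -7.41 and -4.69, Mllt3 by -2.25 and -2.02, Mycn by -6.81 and -4.34 and Runx1 by -1.44 and -2.40 in the first and the second table. None of them passed the threshold within a table.

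**Figure D2:**
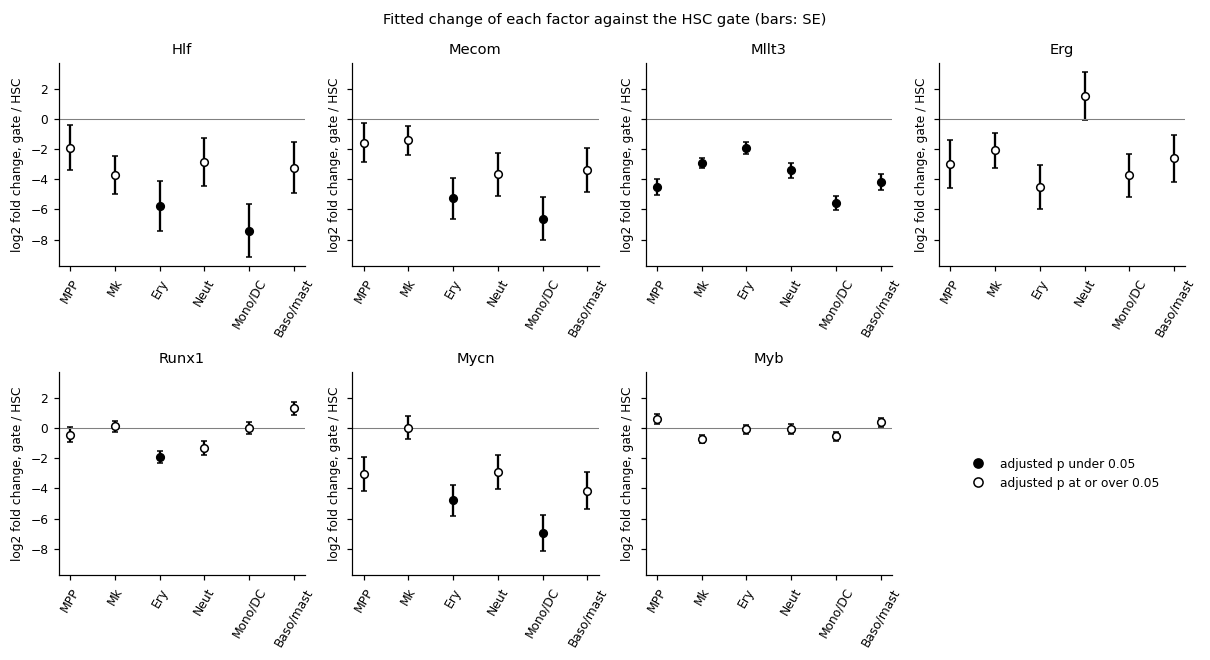
Fitted log2 fold change of each factor in each gate over the HSC gate, with the SE as bars; filled points have an edgeR adjusted p under 0.05. Mllt3 is filled in all 6 gates, Hlf, Mecom and Mycn in the erythroid and the monocyte or dendritic gate, Runx1 in the erythroid gate, and Erg and Myb in none.

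The megakaryocyte gate, the platelet lineage, had Mycn at levels that overlapped those of the HSC gate. Mycn was at 229, 165, 44.7 and 86.0 CPM in megakaryocyte-gated cells of m4533, m4528, m605 and m606, against 344, 102, 45.7 and 105 CPM in HSC-gated cells. The log2 change was 0.03 (SE 0.76, edgeR adjusted p = 1) and took the other sign, -0.08, with RLE size factors. Mycn was found in 62.5%, 53.8%, 25% and 34.1% of megakaryocyte-gated cells, against 41.4%, 26.8%, 15.4% and 26.1% of HSC-gated cells, and after thinning in 58.3%, 46.2%, 25% and 27.3%, against 39.7%, 31.0%, 15.4% and 21.7%. The share was higher in the megakaryocyte gate in 4 of 4 mice, while the level was higher in 1 of 4. Runx1 was at 202, 261, 129 and 214 CPM, against 166, 158, 280 and 164 CPM, with a log2 change of 0.10 (SE 0.36) that was -0.03 with RLE size factors. Hlf was at 106, 16.9, 3.59 and 21.9 CPM, against 457, 414, 96.0 and 318 CPM, with a log2 change of -3.73 (SE 1.25, adjusted p = 0.159). It was lower in 4 of 4 mice, and 40% of the Hlf counts of m4533 came from 1 of 24 cells.

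The remaining factors in megakaryocyte-gated cells were not called. Mecom was at 84.0, 47.4, 28.3 and 25.1 CPM, against 285, 152, 21.7 and 97.1 CPM in the HSC gate, with a log2 change of -1.43 (SE 0.96, edgeR adjusted p = 0.540). Erg was at 2.19, 14.9, 7.58 and 40.7 CPM, against 67.2, 46.0, 12.6 and 120 CPM, with a log2 change of -2.09 (SE 1.17, adjusted p = 0.431), and Myb was at 209, 220, 181 and 185 CPM, against 543, 382, 166 and 360 CPM, with a log2 change of -0.74 (SE 0.26, adjusted p = 0.184). Within this gate the 64 cells with more than 6 megakaryocyte markers had Hlf at 22.7 CPM and Mllt3 at 67.1 CPM, and the 66 cells with 6 or fewer had them at 107 and 285 CPM, an order seen in 3 of 3 mice with at least 10 cells on both sides. Mycn was at 181 CPM in the cells with more markers and 159 CPM in those with fewer, but was higher with more markers in 1 of these 3 mice, m4533.

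Set directly against each other, erythroid- and megakaryocyte-gated cells differed in 2 of the 7 factors, both lower in the erythroid gate, where 1.93% of all genes were. Mycn was at 1.13, 1.92 and 5.36 CPM in erythroid-gated cells of m4528, m605 and m606, against 165, 44.7 and 86.0 CPM in megakaryocyte-gated cells, a log2 difference of -4.82 (SE 1.02, edgeR adjusted p = 0.0192). Runx1 was at 62.1, 29.7 and 52.5 CPM, against 261, 129 and 214 CPM, a log2 difference of -2.03 (SE 0.42, adjusted p = 0.0174). Neither pair of ranges overlapped. Mycn lost the call without m605 (0.0608) and without m606 (0.182), and Runx1 without m4528 (0.167) and without m606 (0.286). Mllt3 was at 190, 146 and 182 CPM, against 181, 44.7 and 61.3 CPM, higher in 3 of 3 mice but not called, with a log2 difference of 1.01 (SE 0.38, adjusted p = 0.215).

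The neutrophil gate was measured in m4528 (43 cells) and m605 (11 cells), and these mice differed. Hlf was at 64.0 and 0.836 CPM, against 414 and 96.0 CPM in HSC-gated cells, Mecom at 16.0 and 0.836 CPM, against 152 and 21.7 CPM, and Mycn at 24.8 and 0.418 CPM, against 102 and 45.7 CPM. Their log2 changes were -2.85 (SE 1.59), -3.68 (SE 1.44) and -2.92 (SE 1.13), with edgeR adjusted p of 0.37, 0.21 and 0.204. Erg was at 26.3 and 134 CPM, against 46.0 and 12.6 CPM, so it was lower in m4528 and higher in m605. In m605, 3 of 11 neutrophil-gated cells had more than 10 counts of Erg, and the fitted change was 1.5 (SE 1.58, adjusted p = 0.672). Runx1 was at 93.4 and 48.9 CPM, against 158 and 280 CPM (log2 change -1.31, SE 0.48, adjusted p = 0.184), and Myb was at 268 and 240 CPM, against 382 and 166 CPM (log2 change -0.07, SE 0.34). Monocyte or dendritic-gated cells set against neutrophil-gated cells showed none of the 7 called, where 0.342% of all genes were called in either direction. Mllt3 came nearest, at 12 and 15 CPM against 84.9 and 46.8 CPM in m4528 and m605, with a log2 difference of -2.20 (SE 0.44, adjusted p = 0.0592). DESeq2 called Mllt3, Hlf, Erg and Mycn in this comparison, among 705 genes, against 57 genes called by edgeR. Unadjusted p-values are not read for this comparison, since no share of all genes at such a level is given here.

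Runx1 had its highest level in basophil or mast cell-gated cells. It was at 584 and 314 CPM in m4528 and m606, against 158 and 164 CPM in HSC-gated cells, a log2 change of 1.29 (SE 0.46, edgeR adjusted p = 0.216). It was higher in 2 of 2 mice and did not pass the threshold. Runx1 was found in 76.5% and 86.7% of these cells, against 25.4% and 30.4% of HSC-gated cells, and after thinning in 70.6% and 80%, against 32.4% and 39.1%. The 13 cells with more than 4 basophil or mast cell markers had 756 CPM of Runx1 and the 26 cells with 4 or fewer had 328 CPM, with too few cells to compare within a mouse. Hlf was at 2.30 and 45.4 CPM, against 414 and 318 CPM, and all 110 Hlf counts of m606 came from 1 cell. Mecom was at 1.44 and 11.6 CPM, against 152 and 97.1 CPM, and Mycn was at 0.862 and 12 CPM, against 102 and 105 CPM. None of these 3 passed in edgeR (adjusted p of 0.403, 0.31 and 0.129), while DESeq2 called Mecom and Mycn, among 1383 genes, against 224 genes called by edgeR. Myb was at 435 and 378 CPM, against 382 and 360 CPM.

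In multipotent progenitor-gated cells Hlf and Mecom were below HSC-gated cells in 2 of 2 mice without passing the test. Hlf was at 85.3 and 44.8 CPM in m4528 and m606, against 414 and 318 CPM, with a log2 change of -1.91 (SE 1.49, edgeR adjusted p = 0.656). Mecom was at 76.8 and 3.63 CPM, against 152 and 97.1 CPM (-1.58, SE 1.30, adjusted p = 0.678), and Mycn was at 18.8 and 8.18 CPM, against 102 and 105 CPM (-3.08, SE 1.13, adjusted p = 0.272). Myb was at 608 and 395 CPM, against 382 and 360 CPM, a log2 change of 0.59 (SE 0.33, adjusted p = 0.497), and was found in 78.9% and 100% of the cells, against 56.3% and 47.8%. Myb was thus higher in 2 of 2 mice in this gate, and was not called.

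**Figure D3:**
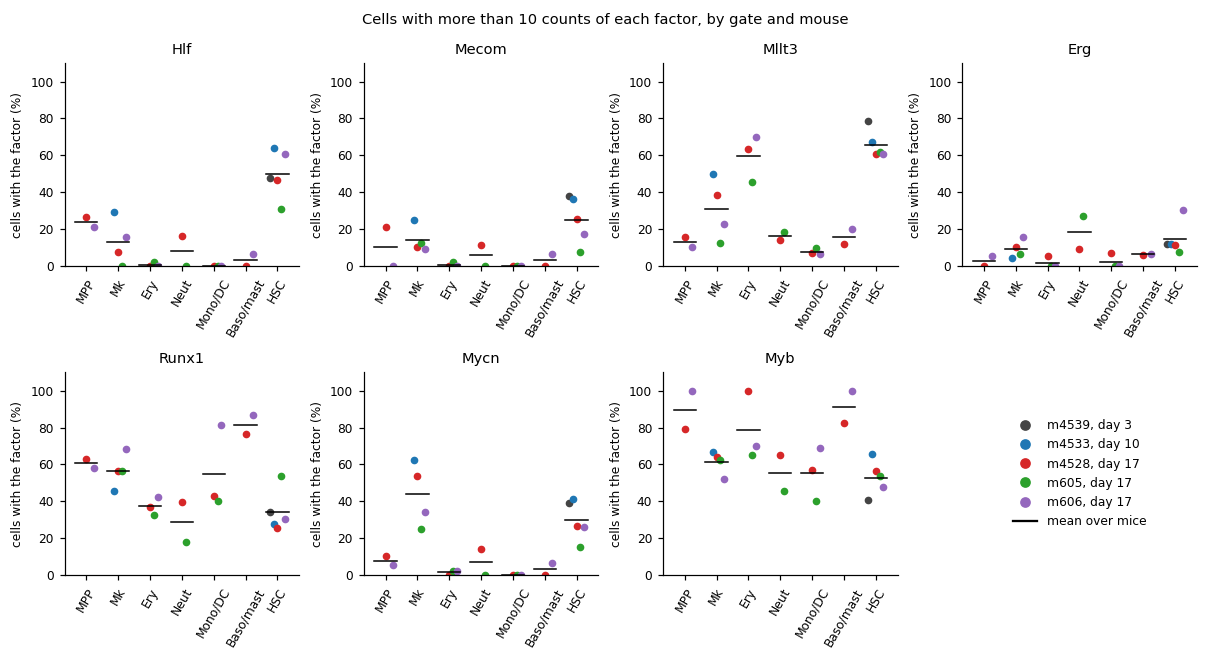
Share of cells with more than 10 counts of each factor, by gate and mouse, with the mean over mice as a line. Mllt3 is found in 45.7% to 70% of erythroid-gated cells, against 60.6% to 78.4% in the HSC gate, an overlap lost after thinning (47.8% to 57.9%, against 63.4% to 69.6% in the same mice), and Myb is found in most cells of the basophil or mast cell and multipotent progenitor gates.

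The order of loss was read from the mean level over mice in each gate, as a description. Hlf had its next highest mean after the HSC gate (318 CPM, SD 140, n = 5) in the multipotent progenitor gate (65.1 CPM), then the megakaryocyte (37.1 CPM), neutrophil (32.4 CPM), basophil or mast cell (23.8 CPM), erythroid (2.64 CPM) and monocyte or dendritic (1.01 CPM) gates. Past the HSC gate, the ranges of neighbours in this order overlapped. The gates were measured in different mice, and the log2 changes fitted within mice put the neutrophil (-2.85), basophil or mast cell (-3.23) and megakaryocyte (-3.73) gates in another order for Hlf, so no order among these 3 is read. Mllt3 ran from the HSC gate (840 CPM, SD 173) to the erythroid (173 CPM), megakaryocyte (108 CPM), neutrophil (65.8 CPM), basophil or mast cell (37.1 CPM), multipotent progenitor (32.9 CPM) and monocyte or dendritic (11.8 CPM) gates, and here the neutrophil gate did not overlap the basophil or mast cell gate, nor the multipotent progenitor gate the monocyte or dendritic gate. Mycn ran from the HSC gate (154 CPM) and the megakaryocyte gate (131 CPM), which overlapped, to 13.5 CPM or less in the other gates. Runx1 ran from the basophil or mast cell gate (449 CPM) through megakaryocyte (201 CPM), HSC (192 CPM), monocyte or dendritic (154 CPM) and multipotent progenitor (138 CPM) gates, whose ranges overlapped apart from the first, to the neutrophil (71.1 CPM) and erythroid (48.1 CPM) gates.

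A second view of the order of loss used the number of the 15 HSC markers found in each cell, whatever its gate, within mouse m4528, which had 51, 76, 80, 66 and 15 cells with 0 to 1, 2 to 3, 4 to 5, 6 to 7 and 8 or more markers. Hlf was found in 1.96%, 7.89%, 23.8%, 48.5% and 60% of these cells. Mllt3 was found in 7.84%, 18.4%, 42.5%, 50% and 86.7%. Mecom was found in 0%, 9.21%, 18.8%, 21.2% and 33.3%, and Mycn in 1.96%, 10.5%, 30%, 28.8% and 33.3%. These 4 factors were found more often where more HSC markers were, apart from 1 step of Mycn. Erg was found in 3.92%, 7.89%, 11.2%, 7.58% and 13.3%. Runx1 showed no such ordering, at 49.0%, 48.7%, 46.2%, 31.8% and 33.3%, and neither did Myb, at 70.6%, 75%, 67.5%, 56.1% and 60%. After each cell was thinned to 10000 counts, where 1 count sufficed, Hlf was found in 1.96%, 13.2%, 30%, 54.5% and 66.7% in the same bins. Mouse m606 gave Hlf in 0%, 1.56%, 28.6%, 46.4% and 62.5% and Mllt3 in 22.2%, 37.5%, 31.4%, 50% and 87.5% of 54, 64, 35, 28 and 8 cells. In the day 10 mouse Hlf was found in 40%, 42.5%, 51.3% and 66.7% of the 15, 40, 39 and 12 cells with 2 to 3, 4 to 5, 6 to 7 and 8 or more markers.

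The day 3 mouse did not show this gradient for Hlf or Mecom. Of its cells, 13, 60, 83 and 34 had 2 to 3, 4 to 5, 6 to 7 and 8 or more HSC markers, and Hlf was found in 53.8%, 51.7%, 47.0% and 47.1% of them. Mecom was found in 38.5%, 38.3%, 41.0% and 35.3%, while Mllt3 was found in 53.8%, 78.3%, 77.1% and 88.2% and Mycn in 7.69%, 35%, 41.0% and 44.1%. At 2 to 3 HSC markers Hlf was thus at 385 CPM in the day 3 mouse, against 26.7, 20.8 and 5.22 CPM in m4528, m605 and m606. The same number of HSC markers therefore went with different levels of Hlf at day 3 and day 17, in 1 mouse against 3, and the bin of the day 3 mouse held 13 cells.

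**Figure D4:**
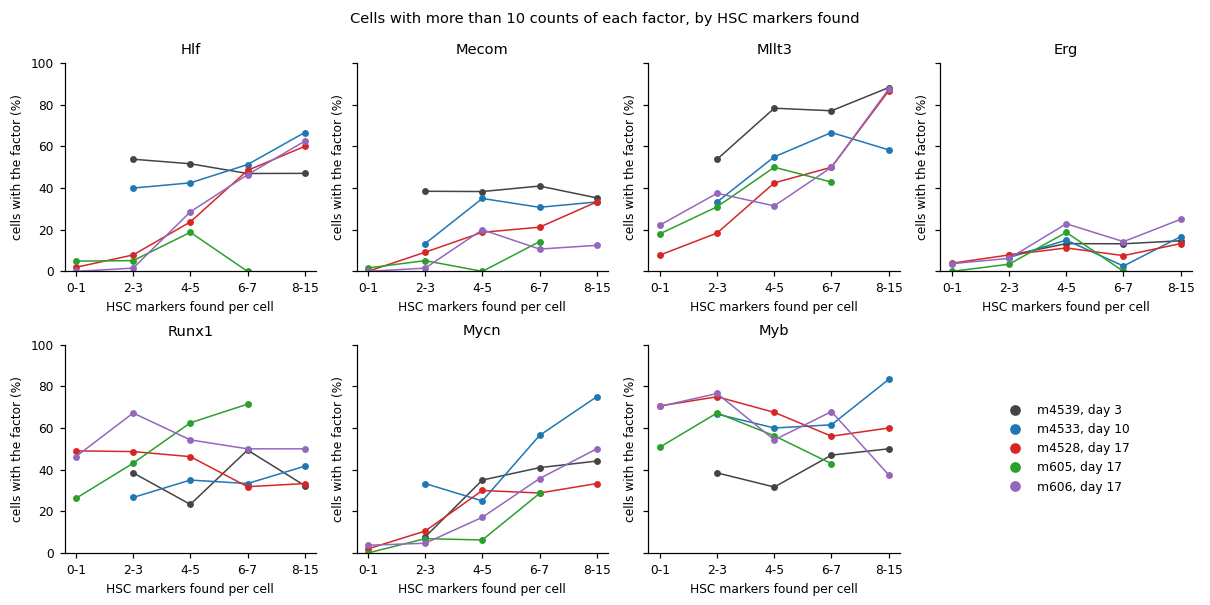
Share of cells with more than 10 counts of each factor (y axis) by the number of HSC markers found in the cell (x axis, of 15), with 1 line per mouse and bins of at least 7 cells. In m4528 Hlf goes with the marker number from 1.96% to 60% of cells, while in the day 3 mouse it stays between 47.0% and 53.8%.

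Co-detection was described in the 313 HSC-gated cells of the 5 mice, where a pair found independently would be seen in the product of its shares within each mouse. Hlf was found in 159 cells, Mecom in 100, Mllt3 in 220, Mycn in 109, Myb in 156, Runx1 in 99 and Erg in 41. Hlf and Mecom were found together in 52 cells, against 51.4 from the product. Hlf and Mllt3 were found together in 112 cells, against 111, and Mecom and Mllt3 in 74, against 72.0. The stem cell factors were thus found together about as often as their shares alone give. Of the 21 pairs, Mecom and Myb lay furthest below the product, with 36 cells against 49.1, and below it in 5 of 5 mice. After thinning, this pair was found in 37 cells, against 50.2, and lay below in 4 of 5 mice. With any count taken as found, it was found in 155 cells, against 155, but Myb was then found in 86.3% of the cells, which leaves little room for a shortfall. Mllt3 and Mycn lay above the product in 5 of 5 mice, with 88 cells against 78.0, but with 91 against 86.7 after thinning. Runx1 and Mycn were found together in 43 cells, against 34.3, and in 46, against 38.6, after thinning. These pairs were singled out after their values were seen, and the depth of a cell is shared by its genes, so no p is given.

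**Figure D5:**
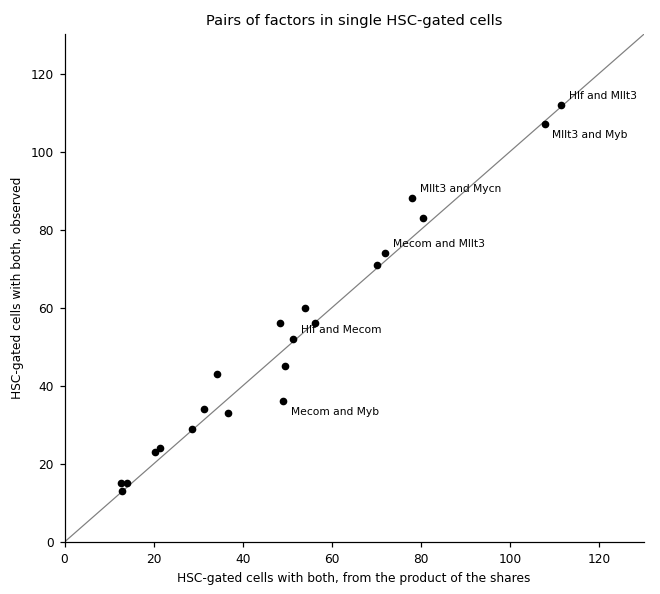
Number of HSC-gated cells (of 313, 5 mice) in which both factors of a pair were found at more than 10 counts (y axis), against the number from the product of the shares within each mouse (x axis), for 21 pairs; the line marks equality. Most pairs lie near the line, and Mecom and Myb lie below it at 36 against 49.1.

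Hlf, Mecom and Mllt3 were found all together in 4.08% of multipotent progenitor-gated cells (2 of 49), 2.31% of megakaryocyte-gated cells (3 of 130) and 1.79% of erythroid-gated cells (2 of 112), and in 0 of 67 monocyte or dendritic-gated cells, against 11.8% of HSC-gated cells (37 of 313). None of the 3 was found in 65.3% of multipotent progenitor-gated, 56.9% of megakaryocyte-gated, 39.3% of erythroid-gated and 92.5% of monocyte or dendritic-gated cells, against 11.2% of HSC-gated cells. Erythroid-gated cells most often had exactly 1 of the 3 (57.1%), while HSC-gated cells had 2 of the 3 in 40.6%. These shares pool cells over mice, and 148 of the 313 HSC-gated cells came from the day 3 mouse. Hlf and Mecom were together in 0 of 13 HSC-gated cells of m605 and in 11 of 71 of m4528. Mecom and Mllt3 were together in 1 of 23 HSC-gated cells of m606. All 3 were therefore together in none of these cells of m605 and in at most 1 of m606. Shares of all 3 were not compared within mice, so the pooled shares above do not separate gate from mouse.

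Likeness of pattern was described over the 21 sums by Pearson's r of log2(CPM + 1), among 8928 genes with a mean of at least 10 CPM, with no p since sums share mice and gates. The genes most like Hlf were Emcn (0.93), Gata3 (0.92), Mecom (0.90), Tox (0.90) and Cdkn1c (0.89), and those most like Mecom were Gata3 (0.95), Mycn (0.94), the HSC gate marker Esam (0.92), Cxxc5 (0.92) and Hlf (0.90). Those most like Mycn were the HSC gate marker Trpc6 (0.95), Mecom (0.94), Csgalnact1 (0.94), Esam (0.92) and Clu (0.92). Mllt3 was most like Gypc (0.90), Pnisr (0.88), Plscr4 (0.86), Trim47 (0.85) and Tgm2 (0.85). Hlf, Mecom and Mycn thus had each other or the same genes near the top, while Mllt3 had r of 0.67 with Hlf, 0.70 with Mecom and 0.69 with Mycn. Runx1 was most like Pkn3 (0.83), Hoxa7 (0.78), Sept6 (0.78), Erbb2ip (0.77) and Bcl2 (0.76), Erg most like Casp4 (0.84), Gm13012 (0.81), Naip5 (0.81), Cand2 (0.81) and Plxna4os1 (0.81), and Myb most like the multipotent progenitor gate marker Il2rg (0.88), Iqcc (0.77), Tut1 (0.75), Sytl1 (0.74) and Zfp7 (0.74).

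Partners of the 7 factors were read from fixed lists. Of 5 further factors of the stem cell heptad that includes Erg and Runx1 (Tal1, Lyl1, Lmo2, Gata2 and Fli1), 4 were lower in the erythroid gate, 3 in the monocyte or dendritic gate, and 1 in each of the other 4 gates, and none was higher. Lmo2, a bridging partner of Tal1, was at 2402 ± 534 CPM in the HSC gate (SD, n = 5 mice), and its log2 change was -1.13 in the erythroid gate (SE 0.24, edgeR adjusted p = 0.00929), -3 in the monocyte or dendritic gate (SE 0.26, adjusted p = 1.27e-05) and -2.96 in the neutrophil gate (SE 0.31, adjusted p = 0.000193). Lyl1 fell by 1.79 in the megakaryocyte gate (SE 0.27, adjusted p = 0.00548). Fli1, the other ETS factor of the heptad, fell by 3.97 in the erythroid gate (SE 0.64, adjusted p = 0.00181), and was lower there than in the megakaryocyte gate by 4.75 (SE 0.66, adjusted p = 0.00131), the direction Runx1 and Mycn took. Cbfb, the partner subunit of Runx1, fell by 2.81 in the erythroid gate (SE 0.60, adjusted p = 0.00964).

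Of 10 HOX genes and HOX cofactors, 7 were lower in the erythroid gate, 6 in the monocyte or dendritic gate and 2 in the basophil or mast cell gate. Meis1, a HOX cofactor, fell by 3.63 in the erythroid gate (SE 0.42, edgeR adjusted p = 0.000174) and by 5.21 in the monocyte or dendritic gate (SE 0.47, adjusted p = 1.81e-05). Of 7 MYC and MYB family genes, Mybl2, a cell cycle relative of Myb, was higher in the megakaryocyte, erythroid, neutrophil and monocyte or dendritic gates, and Mycl in the monocyte or dendritic gate, while Myc was not called in any gate. None of the 8 partners of Mllt3 (such as Dot1l, Kmt2a and Aff1) and none of the 3 relatives of Hlf (Tef, Dbp and Nfil3) was called in any gate. Of a separate list of 15 other stem cell factors, 7 were lower and 1 higher in the erythroid gate, and 6 were lower in the monocyte or dendritic gate. Among these, Myct1, a target of Myc proteins, fell by 6.05 in the erythroid gate (SE 0.80, edgeR adjusted p = 0.000406). It fell by 7.88 in the monocyte or dendritic gate (SE 0.89, adjusted p = 0.000132).

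Cell cycle and stress genes moved between the same gates. The 14 cell cycle genes summed to 2338 to 5891 CPM in the sums of the 6 lineage gates, against 1105 to 1914 CPM in the HSC gate, with 11 of 14 called higher in the erythroid gate, 10 in the monocyte or dendritic gate and 7 in the megakaryocyte gate. The immediate early and stress list summed to 1539 to 2315 CPM in the erythroid gate, against 4227 to 20534 CPM in the HSC gate. Of its 11 tested genes, 9 were called lower in the erythroid gate and 1 higher. The part of either list in the results on the 7 factors was not tested. Of the lists for other cells, the macrophage list reached 45.9 CPM in any sum and the stromal or endothelial list at most 27.5 CPM outside 1 erythroid sum at 345 CPM, while the eosinophil list reached 1578 CPM in the basophil or mast cell gate. The plasma cell list, with 2 of its 4 genes in both tables, summed to 69.5 to 816 CPM in the lineage gates, highest in the monocyte or dendritic gate of m4528, and to 208 to 472 CPM in the HSC gate. The part of these lists in the results on the 7 factors was not tested. With RLE size factors the median change of all genes shifted from 0.19 to -0.06 in the erythroid gate, from 0.07 to -0.13 in the monocyte or dendritic gate and from 0.06 to -0.04 in the megakaryocyte gate. The calls over all genes, 695 lower and 814 higher in the erythroid gate, then became 821 and 586, those of the monocyte or dendritic gate, 488 and 819, became 580 and 625, and those of the megakaryocyte gate, 129 and 205, became 146 and 144.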

How the data were processed

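Single-cell RNA was measured on 14 plates from 5 mice. The values are raw counts per gene and barcode in 2 tables deposited by the authors, with genome build GRCm38 per the submitters' processing notes. No label or header names the aligner or counter. Barcodes with at least 500 genes and 10000 counts were kept. No doublet caller was run. Cells were gated by marker lists and summed per mouse and gate where at least 10 cells were present, without the plate that mixed 2 mice. Sums were fitted with edgeR 4.0.16 (quasi-likelihood, TMM scaling, filterByExpr, gate and mouse as terms), and days with the count table as a term. Calls used a Benjamini-Hochberg adjusted p under 0.05 over all genes tested. The mouse is the block because its gates come from the same animal. The code was tested on simulated data. DESeq2 1.42.0 (R 4.3.3) was an alternative. CPM scales the counts of a sum to a common total, a cell has a factor above 10 counts unless stated, and likeness used a pseudocount of 1 CPM. The data are counts of reads, and shares of cells are given without intervals.

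The text names the 7 factors in every comparison, up to 4 genes per fixed list with the lowest p among those called, list genes of a member's own family, and the 5 genes most like each factor. The factors and lists were chosen with earlier results of these data known. A result on 1 gene of these lists is not reported here.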

Additional observations from a re-analysis of the deposited data

Results flagged for a closer look

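Over 9 day 17 plates, Hlf over all kept cells stood at 151.444 CPM on plate 8 of m4528, far above the others, whose median was 37.7 CPM. The other plates of m4528 were at 72.6, 76.3 and 75.4 CPM. Plate 8 had more than 10 counts of Hlf in 23.5% of its 51 cells, against 18.8% to 26.8% on the other m4528 plates, so the level stood apart and the share of cells did not. This was the 1 value flagged among 21 groups of plates or mice checked, and chance flags about 1 in 20 such groups.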

How the results depend on the processing

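Of the counts of factors called under the alternatives, 115 stayed within 1.5 times of the reported count and 55 did not. Counts below follow the order multipotent progenitor, megakaryocyte, erythroid, neutrophil, monocyte or dendritic and basophil or mast cell gate (1, 1, 5, 1, 4 and 1 called as reported), then erythroid against megakaryocyte (2) and monocyte or dendritic against neutrophil (0). Leaving out each mouse gave 0 to 1, 0 to 1, 0 to 5, 0 to 1, 1 to 4, 0 to 1, 0 to 2 and 0 to 1. The first count table alone called 0 in each, and the second called 2 in the monocyte or dendritic gate and 0 in the others. Gate markers found above 0 counts gave 2 in the monocyte or dendritic gate and 0 elsewhere. DESeq2 called 2, 3, 6, 4, 5, 3, 3 and 4, and 2 over days in all kept cells. Of all genes it called 1030, 1435, 2998, 1900, 2744, 1383, 1441 and 705 in the same order, and 455 over days. For most other alternatives no all-gene count is given, so their counts of factors cannot be judged against a background. At least 5 gate markers gave 2 (multipotent progenitor), 3 (megakaryocyte), 4 (erythroid against megakaryocyte) and 1 (monocyte or dendritic against neutrophil), with no value for the basophil or mast cell gate. Thinned cells gave 2 (megakaryocyte), 4 (basophil or mast cell) and 3 (monocyte or dendritic against neutrophil), the plate of both mice gave 2 (megakaryocyte), and RLE size factors gave 1 (monocyte or dendritic against neutrophil). A gate by the highest share of markers, chosen after seeing the data, gave 2 (multipotent progenitor) and 3 (megakaryocyte), with no value for the basophil or mast cell gate. With no replicate block, so without pairing gates by mouse, 6 were called in the erythroid gate, 3 in erythroid against megakaryocyte, 1 in monocyte or dendritic against neutrophil, and as reported elsewhere.

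The log2 change took the other sign in 60 combinations of factor, comparison and alternative, and none of these was of a called factor. Runx1 in the monocyte or dendritic gate (0.00) was -0.24 with DESeq2 and with RLE, -0.033 with at least 2 and -0.21 with at least 5 gate markers, -0.72 with thinned cells and in the first table, -0.26 with the gate by share, -0.21 with markers above 0 counts, -0.035 with no filter, -0.12 with no replicate block, and -0.15 to 0.052 without 1 mouse. Mycn in the megakaryocyte gate was -0.082 with DESeq2, -0.081 with RLE, -0.053 with at least 2 and -0.16 with at least 5 markers, -0.18 thinned, -0.039 by share, -0.77 with markers above 0 counts, -0.23 with no replicate block, -0.062 in the second table and -0.25 to 0.24 without 1 mouse. Runx1 there was -0.023 with DESeq2, -0.025 with RLE, -0.33 in the second table and -0.12 to 0.53 without 1 mouse. Erg in the neutrophil gate was -1.35 with at least 5 markers, -1.73 in the first table, -3.70 by share, -1.16 with markers above 0 counts and -1.49 to 1.94 without 1 mouse. Myb in the erythroid gate was 0.30 thinned, 0.10 in the first table and -0.43 to 0.11 without 1 mouse, and in the neutrophil gate 0.48 in the second table and -0.54 to 0.23 without 1 mouse. Runx1 in the multipotent progenitor gate was 0.071 thinned. With markers above 0 counts, Hlf was 0.39 in erythroid against megakaryocyte and Myb 0.032 in monocyte or dendritic against neutrophil. Over days in the HSC gate, Erg was 0.16 (at least 5 markers), 0.024 (no table term) and -1.16 to 0.64 (without 1 mouse), Hlf -0.30 (no table term) and -0.35 to 1.36 (without 1 mouse), Mecom 0.086 (markers above 0 counts) and -1.88 to 0.92 (without 1 mouse), Mllt3 -0.73 to 0.22 and Myb -1.07 to 2.52 (without 1 mouse), Mycn 0.60 (markers above 0 counts) and -3.57 to 2.14 (without 1 mouse), and Runx1 0.10 (by share), 0.39 (markers above 0 counts) and 0.25 (no table term). Over days in all cells, Myb was -0.38 to 1.64 and Mycn -4.43 to 1.19 without 1 mouse. The cause of these shifts was not tested. Apart from DESeq2, the counts of factors called are set beside ranges of all-gene counts here, not beside the count of each alternative. In erythroid against megakaryocyte, 517 genes were called, and 0 (first table) to 1441 (DESeq2) under the alternatives. In monocyte or dendritic against neutrophil these were 57 and 0 to 705. All-gene calls were 1509 in the erythroid gate and 0 (first table) to 2998 (DESeq2) under the alternatives, and 1307 and 0 to 2744 in the monocyte or dendritic gate, 511 and 0 to 1900 in the neutrophil gate, 334 and 0 to 1435 in the megakaryocyte gate, 224 and 0 to 1383 in the basophil or mast cell gate, and 158 and 0 to 1030 in the multipotent progenitor gate.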

Other observations

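The 140 cells of the 5 mice that entered no gate held the factors as well. Mllt3 was at 1028 CPM in the ungated cells of the day 3 mouse and at 1251 CPM in those of the day 10 mouse, and at 161, 68.8 and 190 CPM in m4528, m605 and m606. Hlf was at 341 and 282 CPM at days 3 and 10 and at 155, 94.2 and 40.9 CPM in the day 17 mice, where 72.2% of the m605 counts came from 1 cell. Of these cells, 5.71% had Hlf, Mecom and Mllt3 together, and 38.6% had none of the 3.

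In the multipotent progenitor gate, the 21 cells with more than 6 markers of that gate had Hlf at 6.61 CPM and the 28 cells with 6 or fewer had it at 261 CPM, while Myb was at 558 and 402 CPM in the same order. No mouse had 10 cells on both sides (m606 alone did with more markers, m4528 alone with fewer), so mouse and marker number cannot be told apart here.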
